A study of Homo sapiens with 50 samples.

Results

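The genes of the mitochondrial ribosomal proteins were followed through directed differentiation of human embryonic stem cells under pH modulation. Members were taken by name alone: every row whose gene symbol is MRPL or MRPS followed by digits and at most 1 letter from A to C, with pseudogenes left out. The rule returned 78 of the 57905 rows of the deposited tables. These rows carry 76 symbols, 47 of them MRPL and 29 MRPS. By the place of the protein in the ribosome, 49 symbols belong to the large subunit and 26 to the small subunit, since the proteins of MRPS30 and MRPS18A sit in the large subunit and MRPS36 is counted in neither. The product of MRPS36 is now counted as a component of the 2-oxoglutarate dehydrogenase complex and not as a ribosomal protein, and its row was kept because the symbol fits the rule. Of the 75 ribosomal symbols, 46 have a counterpart in bacterial ribosomes and 29, MRPS18A included, are counted as specific to mitochondria.

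The libraries came from H1, an established human embryonic stem cell line of WT genotype, in 25 groups of 2 libraries each. The tested cultures were given IWP2, NaHCO3 and 2-DG together, IWP2 and NaHCO3 together, IWP2 alone, NaHCO3 alone or HCl alone, and each of these was sampled at days 3, 5, 7 and 11. They were set against a differentiation control of the same days, and undifferentiated cells at day 0 complete the series. The series describes spontaneous mesendoderm differentiation and cardiac differentiation driven by a WNT inhibitor, the sample labels give cardiac differentiation for every library, and neither gives a dose, a time of addition or a pH reading. IWP2 blocks the secretion of WNT ligands, HCl acidifies a medium, NaHCO3 is a base and the buffer of most culture media, and 2-DG (2-deoxyglucose) competes with glucose and slows glycolysis. The labels do not say that the 2 libraries of a group came from separate cultures, so p-values measure only the spread between these libraries, which may be technical.

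Mitochondria keep a ribosome of their own, which translates the few messenger RNAs encoded by mitochondrial DNA. All of those messages specify core subunits of the respiratory chain and ATP synthase. The ribosomal RNAs of this ribosome come from mitochondrial DNA as well, whereas all of its proteins are encoded in the nucleus, made in the cytosol and imported. Heart muscle depends on oxidative phosphorylation, and inherited defects of MRPL3, MRPL44, MRPS22 and MRPS14 are known causes of cardiomyopathy in infants and children.

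Total counts lay between 14794134 and 22796553 in the 24 libraries of days 3 and 5 and between 14090004 and 20445875 in the 26 libraries of days 7, 11 and 0. These 2 tables were normalized separately, so every test stayed within a table. A gene entered the tests with at least 1 FPKM (the authors' level, scaled by gene length and library size) in at least 2 libraries, which left 17286 and 18451 genes. A gene is called changed below at an adjusted p under 0.05 over all genes of its table (edgeR quasi-likelihood test, Benjamini-Hochberg), with no minimum fold. Of the 78 rows, 75 entered the tests in both tables. Both MRPL30 rows, at mean levels of 0.193 and 0.191 FPKM, and a readthrough row carrying the symbol MRPS17, at 0.17 FPKM, fell below the filter. Undifferentiated libraries held all 6 pluripotency markers, with POU5F1 at 754 ± 22.5 FPKM (SD, n = 2). Cardiomyocyte markers (TNNT2, MYH6, MYH7, MYL7, ACTN2, NKX2-5 and TTN) summed to 4915 and 5000 FPKM in HCl libraries of day 11, against 500.3 and 692.5 FPKM in control libraries of day 11, and to 5284 and 4872 FPKM in IWP2 libraries of day 7, against 361 and 411.4 FPKM in control libraries of day 7. A library that stands apart is the first replicate of IWP2, NaHCO3 and 2-DG at day 3, in which all 75 members lay above the second replicate, by a median of 0.78 on the log2 scale. The first replicate of NaHCO3 at day 7 also lay apart, with a summed member level of 876.5 FPKM against 1081 FPKM in the second.

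Promoter sequences from RefSeq (GRCh38.p14) were matched for 67 of the 76 symbols, in a window of 300 bases that runs from 250 bases before to 50 bases after the gene start. The literal motif CCGGAAG, the core bound by ETS factors, was found on either strand in 28 member promoters, 41.8% of them, against 10.7% of all 27305 promoters of the same length. AAGATGGCG, which YY1 binds, was found in 13 member promoters (19.4%), against 1.85% of all promoters. Its first letters repeat the last letters of the ETS core, so the 2 motifs can overlap. The GC-box GGGCGGG was found in 50.7% of member promoters against 32.9% of all promoters, the E-box CACGTG in 8.96% against 7.43%, and the palindromic NRF1 consensus in 10.4% against 6.28%. The 5 promoters below are those of members whose levels carry the comparisons that follow. MRPL34 and MRPS12 were among the members with the largest responses to IWP2, MRPS30 was called higher with HCl and with IWP2 alone at days 7 and 11, MRPS2 went against the other members, and MRPL14 had the second largest called rise with NaHCO3 alone at day 11. The windows are cut 30 bases after the gene start, capitals mark these motifs on either strand, and the positions are chr19:17292323-17292602 (MRPL34, plus strand), chr19:38930694-38930973 (MRPS12, plus strand), chr5:44808697-44808976 (MRPS30, plus strand), chr9:135500432-135500711 (MRPS2, plus strand) and chr6:44127279-44127558 (MRPL14, minus strand).
MRPL34: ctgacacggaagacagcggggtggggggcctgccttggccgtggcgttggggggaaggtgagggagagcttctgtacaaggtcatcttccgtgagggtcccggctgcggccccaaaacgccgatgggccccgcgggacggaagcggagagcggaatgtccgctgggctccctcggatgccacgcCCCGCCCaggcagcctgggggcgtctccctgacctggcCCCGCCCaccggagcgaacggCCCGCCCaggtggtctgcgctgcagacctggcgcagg
MRPS12: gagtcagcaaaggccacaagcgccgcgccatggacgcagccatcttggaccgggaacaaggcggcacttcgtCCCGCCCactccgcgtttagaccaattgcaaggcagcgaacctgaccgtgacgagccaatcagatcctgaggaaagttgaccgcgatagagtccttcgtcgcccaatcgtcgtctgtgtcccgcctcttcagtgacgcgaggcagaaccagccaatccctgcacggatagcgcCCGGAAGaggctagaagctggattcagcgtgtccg
MRPS30: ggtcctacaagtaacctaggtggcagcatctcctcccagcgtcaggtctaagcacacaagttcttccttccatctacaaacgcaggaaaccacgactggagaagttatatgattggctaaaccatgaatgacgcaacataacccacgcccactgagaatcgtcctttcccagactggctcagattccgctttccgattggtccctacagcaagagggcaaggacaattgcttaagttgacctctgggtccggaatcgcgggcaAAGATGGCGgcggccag
MRPS2: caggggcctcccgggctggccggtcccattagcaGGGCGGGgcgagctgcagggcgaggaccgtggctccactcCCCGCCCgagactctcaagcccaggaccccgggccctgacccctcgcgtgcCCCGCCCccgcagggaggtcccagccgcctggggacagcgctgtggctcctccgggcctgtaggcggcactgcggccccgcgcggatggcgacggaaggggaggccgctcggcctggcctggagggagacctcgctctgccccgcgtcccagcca
MRPL14: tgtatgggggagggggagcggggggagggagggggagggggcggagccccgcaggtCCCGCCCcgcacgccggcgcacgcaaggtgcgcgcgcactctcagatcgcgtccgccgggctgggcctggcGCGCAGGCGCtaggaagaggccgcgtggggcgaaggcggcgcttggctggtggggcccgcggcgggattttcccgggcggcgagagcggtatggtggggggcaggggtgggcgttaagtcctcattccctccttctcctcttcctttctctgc
The windows differ in what they hold. MRPL34 and MRPS2 each have 3 copies of the GC-box and no other motif of the set, MRPS12 has an ETS core beside its start and a GC-box, MRPL14 has the NRF1 motif and a GC-box, and MRPS30 has the YY1 motif just behind its start. For IWP2 against control at day 7, the median log2 fold change was 0.32 for the 27 tested members with the ETS core and 0.34 for the 39 without it, and 0.41 for the 13 with the YY1 motif against 0.32 for the 53 without it. It was 0.33 for the 34 with the GC-box against 0.34 for the 32 without it, 0.22 for the 6 with the NRF1 consensus against 0.34 for the other 60, and 0.14 for the 6 with the E-box against 0.34 for the other 60. With NaHCO3 on IWP2 at day 7 the median was -0.42 with the YY1 motif and -0.24 without it. The medians with and without that motif lay closer for 2-DG at day 7 (0.541 and 0.506) and HCl at day 11 (0.475 and 0.435). For control day 7 over day 0 they were -0.720 and -0.611. No test was made of these medians.

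Member levels spanned a wide range. Over all 50 libraries MRPS34 had the highest mean level, 74.9 FPKM, followed by MRPL51 at 61.3 FPKM and MRPL15 at 53.5 FPKM. MRPS34 was also among the 5 members with the widest range of group means, which ran from 30.2 FPKM with NaHCO3 at day 7 to 155.6 FPKM with IWP2, NaHCO3 and 2-DG at day 3. MRPL1, whose bacterial counterpart forms the mobile stalk at the tRNA exit site, ran from 3.18 FPKM with HCl at day 3 to 17.7 FPKM with IWP2, NaHCO3 and 2-DG at day 11. Of the tested members MRPL49 varied least, between 13.8 FPKM with IWP2 at day 7 and 19.6 FPKM with HCl at day 3. In 30 of the 78 rows the lowest of the 25 group means fell in NaHCO3 cultures of day 7. In 22 rows the highest fell in the day 3 cultures with 2-DG. The 2 libraries disagree in each of these groups, and the 25 groups span 2 tables normalized separately. No share over all genes is given for these counts.

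Undifferentiated cells held the members at a high level, and control cultures of day 7 held them at a lower one. The levels of all 78 rows summed to 1754 ± 43.1 FPKM at day 0, 1638 FPKM at day 3, 1284 ± 37.5 FPKM at day 5, 1218 ± 7.78 FPKM at day 7 and 1178 ± 30.4 FPKM at day 11 (SD, n = 2). Values of days 3 and 5 come from the other table and were not tested against the rest. At day 7, 62 of the 75 members were called lower and 4 higher than at day 0, with a median log2 fold change of -0.66, while 34.4% of all tested genes were called lower and 33.2% higher. In bulk RNA, fewer cells of a type and less RNA per cell cannot be told apart. MRPS34, a small subunit protein whose loss destabilizes that subunit, had 37.2 and 36.1 FPKM in control libraries of day 7, against 90.2 and 92.8 FPKM in undifferentiated libraries. The groups do not overlap (log2 fold change -1.49 ± 0.08 SE, adjusted p = 2.04e-17). MRPL3, a protein near the peptidyl transferase centre, had 36.2 and 35.3 FPKM at day 7, against 79.7 and 84.7 FPKM at day 0 (-1.37 ± 0.07, adjusted p = 1.30e-17). MRPS12, the counterpart of the bacterial protein that monitors decoding, fell to 5.07 and 5.34 FPKM at day 7, against 12.6 and 12.6 FPKM at day 0 (-1.44 ± 0.13).

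Against the other members, MRPL53, a protein of the large subunit that bacteria lack, had 3.77 and 3.53 FPKM in control libraries of day 7, against 1.12 and 1.20 FPKM at day 0 (log2 fold change 1.48 ± 0.24, adjusted p = 2.59e-06). Its row overlaps CCDC142 on the same strand, and how the authors' count divides reads between these genes is not known. MRPS6, MRPL40 and MRPS25 made up the other called rises, and MRPS6 had 15.6 and 15.1 FPKM against 8.47 and 8.89 FPKM at day 0. MRPS14 did not pass the test, with a log2 fold change of -0.00. The median log2 fold change was -0.67 for large subunit genes and -0.58 for small subunit genes, and -0.66 for members with and without a bacterial counterpart alike. The 7 ribosome subunits that carry other symbols (such as CHCHD1, AURKAIP1 and DAP3) all fell, with a median of -0.96. All 12 G2/M genes, a list of cell division genes, fell as well, with a median of -1.62, and MYC, a growth regulator, averaged 2.15 ± 0.21 FPKM at day 7 and 21.1 ± 1.35 FPKM at day 0. The part of cell division in the members' fall was not tested. Between days 7 and 11 few members of the control cultures passed the test: 6 were called higher and 4 lower (19.7% and 15.6% of all genes), a split that turned to 2 higher and 11 lower when libraries were scaled by their totals alone, and leaving out any 1 of the 4 libraries left 1 to 6 calls in all.

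**Figure D1:**
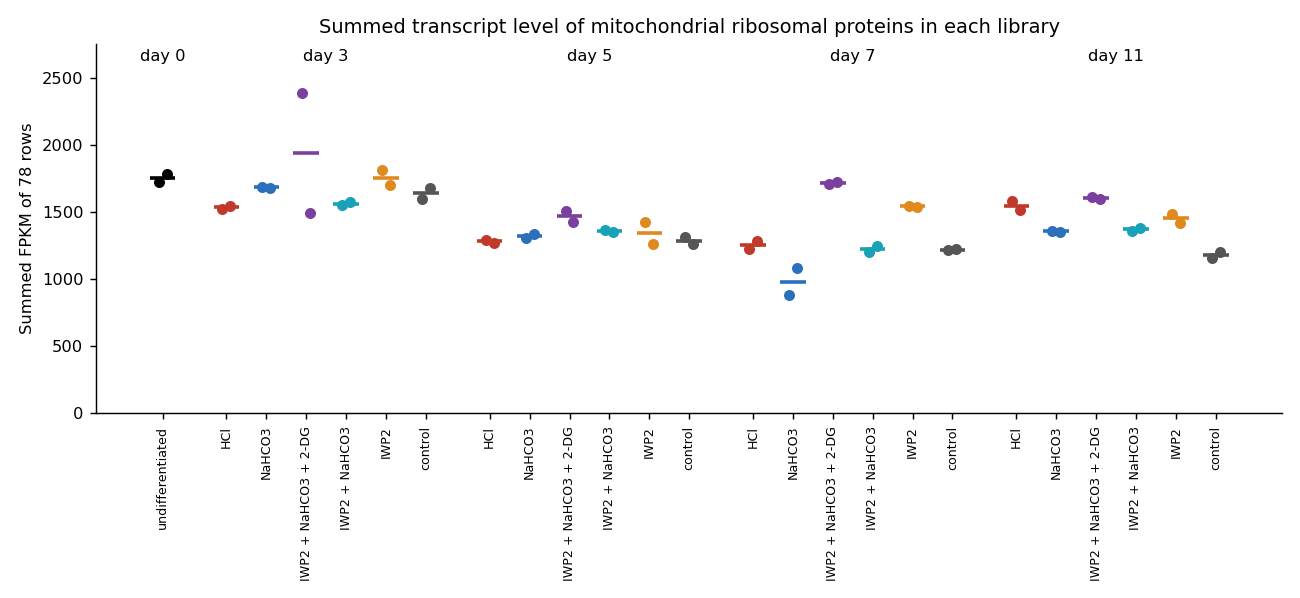
Summed level of the 78 mitochondrial ribosomal protein rows, in FPKM, in each of the 50 libraries, by group and day, with points for libraries and lines for the group means. Days 3 and 5 come from a table normalized separately. The level is high at day 0 (1754 ± 43.1 FPKM) and lowest in NaHCO3 cultures of day 7, and at day 7 the IWP2 cultures and those with IWP2, NaHCO3 and 2-DG lie above the control.

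IWP2 at day 7 went with a broad rise of the members. Of the 75 tested, 49 were called higher than in the control and none lower, with a median log2 fold change of 0.35, against 23.3% of all genes called higher and 24.1% lower. The summed level was 1541 ± 4.24 FPKM in IWP2 cultures and 1218 ± 7.78 FPKM in control cultures (SD, n = 2 each). Scaling by library totals alone gave 37 higher and 4 lower, with a median of 0.25, and lowered the median of all genes to -0.11 from -0.01. MRPL34, a short protein of the large subunit, had 26.3 and 25.3 FPKM in IWP2 libraries, against 9.15 and 9.72 FPKM in control libraries. Both IWP2 libraries lie far above both controls (log2 fold change 1.55 ± 0.11, adjusted p = 2.56e-13). MRPL15, whose bacterial counterpart takes part in late assembly of the large subunit, had 102.5 and 102.1 FPKM, against 41.8 and 41.5 FPKM in control libraries (1.39 ± 0.09, adjusted p = 1.91e-14). MRPS12 had 12.6 and 12.4 FPKM, against 5.07 and 5.34 FPKM in control libraries (1.36 ± 0.13, adjusted p = 3.61e-10).

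The remaining members of that response covered both subunits. MRPL41, a mitochondria-specific protein of the large subunit, had 44.5 and 42.4 FPKM with IWP2, against 19.8 and 18.4 FPKM in the control, and MRPL2, at the core of the large subunit, 15.4 and 15.6 FPKM against 6.68 and 7.84 FPKM. MRPL12, which in bacteria and mitochondria forms the flexible stalk that recruits translation factors, rose by 0.95 on the log2 scale, and MRPS7 and MRPS22 of the small subunit by 0.66 and 0.59. The rise was not shared by every member. MRPL3, MRPL11, MRPL37, MRPS27 and MRPS2 had log2 fold changes between -0.17 and -0.02 and did not pass the test. Of the 3 proteins that share the descent of bacterial S18, MRPS18B rose (0.42), while MRPS18A (0.21) and MRPS18C (0.22) did not pass. MRPS36, the dehydrogenase component, rose by 1.10, more than most ribosomal members. MRPL34, MRPS12 and MRPL2 overlap a gene on the opposite strand (ABHD8, SARS2 and KLC4), and the sources used here do not state whether counting used strand, whereas MRPL15 and MRPL41 overlap none.

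Cardiomyocyte markers moved with this rise. All 7 were called higher in IWP2 cultures of day 7, and their sum was 5284 and 4872 FPKM against 361 and 411.4 FPKM in control libraries. None was at 0 in either group. The 5 fibroblast markers were all lower, at 300 and 462.5 FPKM against 2278 and 2167 FPKM. The part of these shifts in cell makeup in the members' rise was not tested.

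At day 11 the IWP2 cultures still differed from the control in 38 members called higher and 2 lower, with a median of 0.30, against 22.1% and 23.3% of all genes. MRPL15 had 89.7 and 97.3 FPKM, against 37.8 and 40.6 FPKM in control libraries of day 11 (1.28 ± 0.09, adjusted p = 2.97e-13). MRPS30 had 11.0 and 13.4 FPKM, against 7.22 and 6.93 FPKM (0.81 ± 0.08, adjusted p = 1.20e-09), and MRPL34 and MRPL39 rose by 0.85 and 0.83. The 2 lower members were MRPL53 and MRPS2. All 7 cardiomyocyte markers were called higher at this day, with sums of 3362 and 3468 FPKM against 500.3 and 692.5 FPKM, and all 7 liver and foregut markers lower, with 173.6 and 157.9 FPKM against 4234 and 5059 FPKM. The 5 fibroblast markers were lower too, at 614.2 and 555.2 FPKM against 2909 and 2912 FPKM, and the part of these cell types was not tested. Set against day 0, IWP2 cultures of day 7 still had 34 members lower and 15 higher (33.7% and 35.2% of all genes). MRPS34 had 39.2 and 42.7 FPKM with IWP2 at day 7, against 90.2 and 92.8 FPKM at day 0, and MRPL15 had 102.5 and 102.1 FPKM, against 54.5 and 60.8 FPKM at day 0. IWP2 cultures of day 7 thus held some members well above the stem cell level and others far below it. Between days 7 and 11 of IWP2 culture, 15 members fell and 2 rose (15.4% and 16.3% of all genes), with 10 or 11 calls in all when the second library of day 11 or either library of day 7 was left out.

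**Figure D2:**
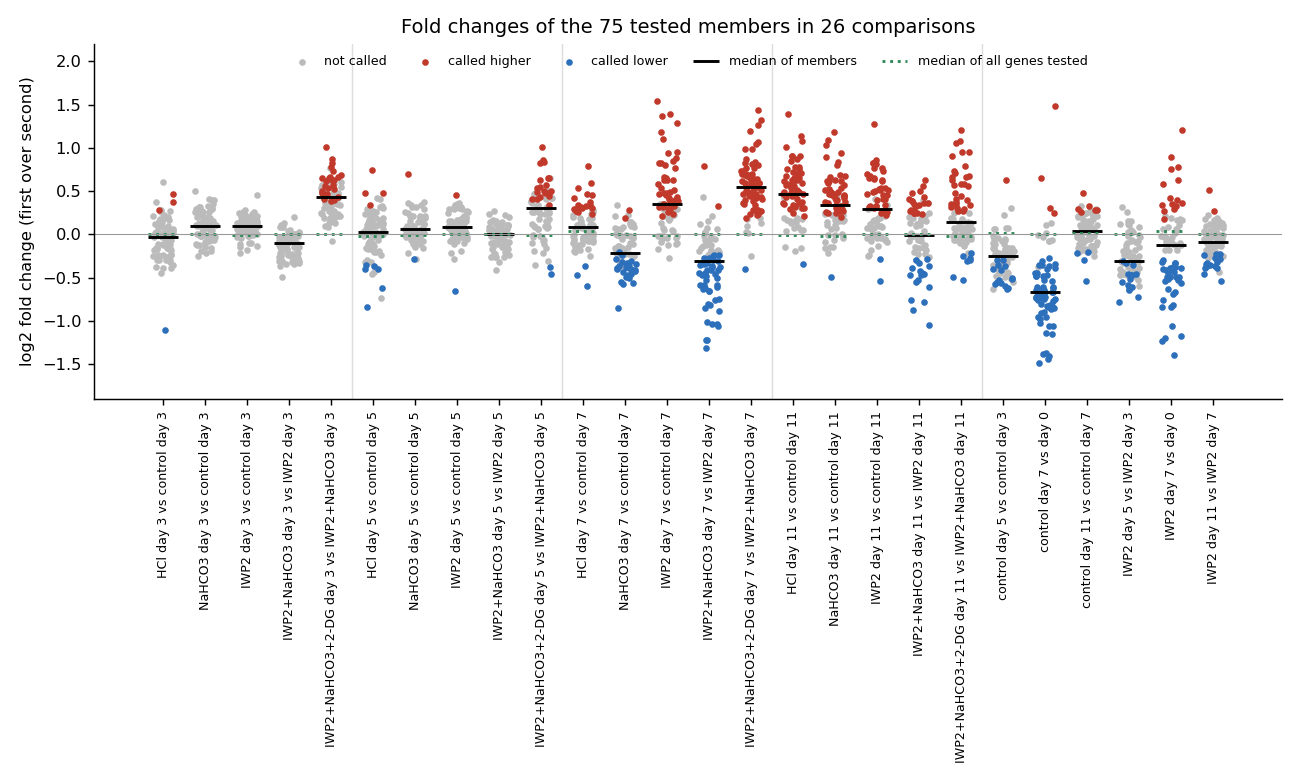
Log2 fold change of each of the 75 tested members (points) in the 26 comparisons, tested group over its reference, with the median of the members as a black mark and the median of all tested genes as a dotted green mark. The members' medians stand furthest above those of all genes for 2-DG at day 7 (0.55) and HCl at day 11 (0.46) and furthest below for control day 7 over day 0 (-0.66).

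NaHCO3 added to IWP2 went with lower levels of most members at day 7. Cultures with IWP2 and NaHCO3 had 45 members lower and 2 higher than cultures with IWP2 alone, with a median of -0.30, against 24% and 24.6% of all genes. The summed level was 1226 ± 30.4 FPKM with IWP2 and NaHCO3, against 1541 ± 4.24 FPKM with IWP2 alone. This comparison and the one of IWP2 with the control share the IWP2 libraries, so their values are set side by side only. MRPS36 had 8.96 and 10.9 FPKM with IWP2 and NaHCO3, against 25.7 and 21.8 FPKM with IWP2 alone (-1.32 ± 0.13, adjusted p = 1.01e-09), MRPL15 46.7 and 44.3 FPKM against 102.5 and 102.1 FPKM (-1.22 ± 0.09) and MRPL34 11.5 and 11.6 FPKM against 26.3 and 25.3 FPKM (-1.22 ± 0.11). In each case both libraries with NaHCO3 lie below both without it. MRPS12, MRPL2 and MRPL41 fell by 1.06, 1.04 and 1.01.

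MRPS2, the counterpart of the bacterial small subunit protein S2 and a cause of combined respiratory chain deficiency when mutated, went the other way. It had 28.3 and 30.4 FPKM with IWP2 and NaHCO3, against 16.2 and 16.5 FPKM with IWP2 alone (0.79 ± 0.09, adjusted p = 5.96e-09). MRPL17 was the other called rise, at 15.2 and 14.2 FPKM against 11.3 and 11.2 FPKM. MRPS2 overlaps C9orf116 on the opposite strand. All 7 cardiomyocyte markers were lower in the same comparison, with sums of 475.4 and 512.7 FPKM against 5284 and 4872 FPKM, and all 5 fibroblast markers and 6 of 7 liver and foregut markers were higher. The part of these cell types in the result was not tested.

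At day 11 members were called in both directions. NaHCO3 on top of IWP2 had 20 members higher and 17 lower than IWP2 alone, with a median of -0.00. The shares over all genes were 26.1% and 23.9%, so both counts lie near them. Scaling by library totals alone gave 15 higher and 24 lower. MRPS25, a mitochondria-specific protein of the small subunit, had 10.1 and 10.3 FPKM with IWP2 and NaHCO3, against 20.9 and 23.5 FPKM with IWP2 alone (-1.05 ± 0.08, adjusted p = 3.79e-12). MRPS30 had 6.43 and 6.33 FPKM against 11.0 and 13.4 FPKM (-0.87 ± 0.08), and MRPL15 was lower by 0.78. In the other direction MRPL14, which forms a bridge between the subunits, had 47.7 and 53.0 FPKM against 34.1 and 34.3 FPKM (0.62 ± 0.12, adjusted p = 6.28e-05), and MRPL17, MRPS11 and MRPL51 rose by 0.56, 0.51 and 0.48. Cardiomyocyte markers were all lower here too, at 254.2 and 261.3 FPKM against 3362 and 3468 FPKM. Fibroblast markers summed to 3391 and 3466 FPKM with IWP2 and NaHCO3, against 614.2 and 555.2 FPKM with IWP2 alone. Liver and foregut markers summed to 4766 and 4478 FPKM against 173.6 and 157.9 FPKM. The part of these cell types was not tested.

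2-DG added to IWP2 and NaHCO3 went with a rise of most members, and with more called rises than any other of the 26 comparisons. At day 7, 66 of 75 members were higher and 1 lower than with IWP2 and NaHCO3 alone, with a median of 0.55, against 25% and 22.7% of all genes, and 57 to 65 calls were left when any 1 of the 4 libraries was removed. The summed level was 1714 ± 13.4 FPKM with 2-DG and 1226 ± 30.4 FPKM without it. MRPL34 had 28.0 and 31.0 FPKM with 2-DG, against 11.5 and 11.6 FPKM without it (1.44 ± 0.11, adjusted p = 8.41e-13). MRPL39, which resembles a threonyl-tRNA synthetase, had 40.4 and 39.0 FPKM against 17.5 and 19.2 FPKM (1.20 ± 0.11), and MRPL15 had 101.5 and 104.8 FPKM against 46.7 and 44.3 FPKM (1.26 ± 0.09). Libraries with and without 2-DG do not overlap in any of these. MRPL36, MRPL12 and MRPS16 rose by 0.99, 0.80 and 0.74. MRPS14 (0.18) and MRPS18A (0.27) were among the few that did not pass, and MRPS2 was the single fall, at 20.3 and 21.9 FPKM against 28.3 and 30.4 FPKM (-0.40 ± 0.09). Cardiomyocyte markers summed to 2918 and 2881 FPKM with 2-DG, against 475.4 and 512.7 FPKM without it, and all 7 were called higher. Fibroblast markers summed to 331.7 and 265.3 FPKM with 2-DG, against 2285 and 2172 FPKM without it. Liver and foregut markers summed to 127.3 and 95.99 FPKM against 1305 and 1355 FPKM. The part of these cell types in the members' rise was not tested.

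At day 11 the response to 2-DG covered fewer members, with 30 higher and 7 lower and a median of 0.15, against 24.9% and 26.8% of all genes. MRPL15 had 120.8 and 115.7 FPKM with 2-DG, against 52.8 and 51.5 FPKM without it (1.20 ± 0.09, adjusted p = 2.54e-13), and MRPS25 and MRPS30 rose by 0.95 each. MRPL55, MRPL14, MRPL17, MRPS2 and MRPL11 fell, by 0.53, 0.49, 0.31, 0.30 and 0.27. MRPL14, MRPL17 and MRPS2 were thus higher with NaHCO3 on IWP2 and lower with 2-DG on both at day 11, in comparisons that share the libraries with IWP2 and NaHCO3. Cardiomyocyte markers summed to 5232 and 4767 FPKM with 2-DG at day 11, against 254.2 and 261.3 FPKM without it, and all 7 were called higher. Liver and foregut markers summed to 174 and 180.1 FPKM against 4766 and 4478 FPKM, and fibroblast markers to 313.8 and 410.2 FPKM against 3391 and 3466 FPKM, with all 7 and all 5 called lower. The part of these cell types in the result was not tested.

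**Figure D3:**
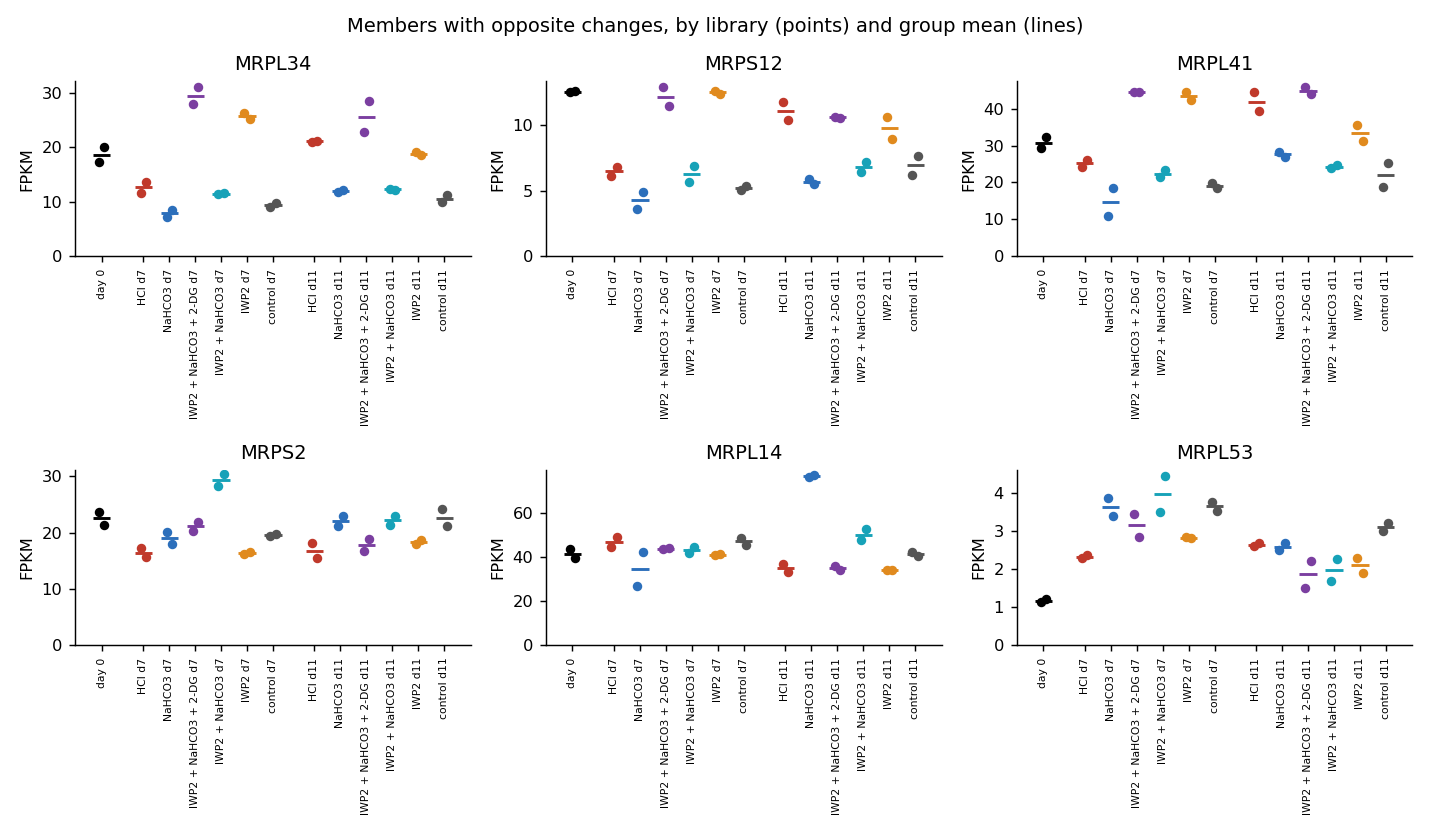
Level in FPKM of MRPL34, MRPS12, MRPL41, MRPS2, MRPL14 and MRPL53 in each library of days 0, 7 and 11. MRPL34, MRPS12 and MRPL41 are high with IWP2 alone and with 2-DG at day 7, while MRPS2 is highest with IWP2 and NaHCO3 among the groups of that day and MRPL14 is highest with NaHCO3 alone at day 11.

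HCl cultures of day 11 had higher levels of most members, and the HCl effect was larger at day 11 than at day 7. At day 11, 55 members were higher and 1 lower than in the control, with a median of 0.46, against 25.3% and 27.4% of all genes. The summed level was 1544 ± 47.4 FPKM with HCl and 1178 ± 30.4 FPKM in the control. MRPL15 had 97.6 and 95.9 FPKM with HCl, against 37.8 and 40.6 FPKM in the control (1.39 ± 0.09, adjusted p = 1.77e-14). MRPL39 had 36.3 and 36.4 FPKM against 18.6 and 16.5 FPKM (1.13 ± 0.11), and MRPL41 had 44.5 and 39.3 FPKM against 18.8 and 25.2 FPKM (1.01 ± 0.15). The groups do not overlap in any of these. Cardiomyopathy genes were among the called rises, with MRPS22 at 0.65, MRPS14 at 0.57 and MRPL44 at 0.25, but MRPL3 (0.04) was not. MRPS2 was the single fall, at 18.1 and 15.5 FPKM against 24.1 and 21.2 FPKM (-0.35 ± 0.09).

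At day 7, HCl cultures had 17 members higher and 3 lower, with a median of 0.09, against 23.1% and 20% of all genes, so the rises lie near the share over all genes and the falls below it. Library totals alone gave 10 and 6, and leaving out either control library or the second HCl library left 10 to 12 calls. The clearest of them was MRPS30, with 14.4 and 14.4 FPKM in HCl libraries, against 8.65 and 8.61 FPKM in control libraries (0.79 ± 0.08, adjusted p = 1.43e-09). MRPL2 and MRPS5 rose by 0.59 and 0.54, and MRPL53, MRPS11 and MRPL1 fell by 0.60, 0.48 and 0.36. The test of the difference between days called 38 members, all with a larger HCl effect at day 11, against 41.4% of all genes called in either direction. MRPL15 led, with a log2 difference of 1.47 ± 0.13 (adjusted p = 6.59e-11), followed by MRPL1 and MRPS11 at 1.07 and 0.94. Cardiomyocyte markers summed to 4915 and 5000 FPKM with HCl at day 11, against 500.3 and 692.5 FPKM in the control, and to 878.5 and 1195 FPKM with HCl at day 7, against 361 and 411.4 FPKM. At day 11 fibroblast markers summed to 319 and 331.3 FPKM with HCl, against 2909 and 2912 FPKM in the control. Liver and foregut markers summed to 233.3 and 379.4 FPKM against 4234 and 5059 FPKM at that day, and all of both sets were called lower. The sums were below the control at day 7 as well. Fibroblast markers had 388.1 and 361.5 FPKM with HCl at day 7, against 2278 and 2167 FPKM in the control. Liver and foregut markers had 42.61 and 55.89 FPKM against 1581 and 1606 FPKM. The part of these cell types in the difference was not tested.

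Comparisons with no library in common can be set against each other by the members they called. Of the 49 called higher with IWP2 at day 7 and the 55 called higher with HCl at day 11, 45 were in both, 91.8% and 81.8% of the lists. The 49 shared 47 with the 66 raised by 2-DG at day 7, 95.9% and 71.2%. Of the 55 raised by HCl at day 11, 42 were among the 45 lowered by NaHCO3 on IWP2 at day 7, 76.4% and 93.3%. The IWP2 list shared 30 with the 47 members raised by NaHCO3 alone at day 11, 61.2% and 63.8%. These shares are to be read against the lists' share of the 75 tested members, which was 65.3% for IWP2 at day 7, 73.3% for HCl at day 11, 88% for 2-DG at day 7, 60% for NaHCO3 on IWP2 at day 7 and 62.7% for NaHCO3 alone at day 11. The shared part with NaHCO3 alone thus lies at that list's share of all members, and none of the overlaps was tested.

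**Figure D4:**
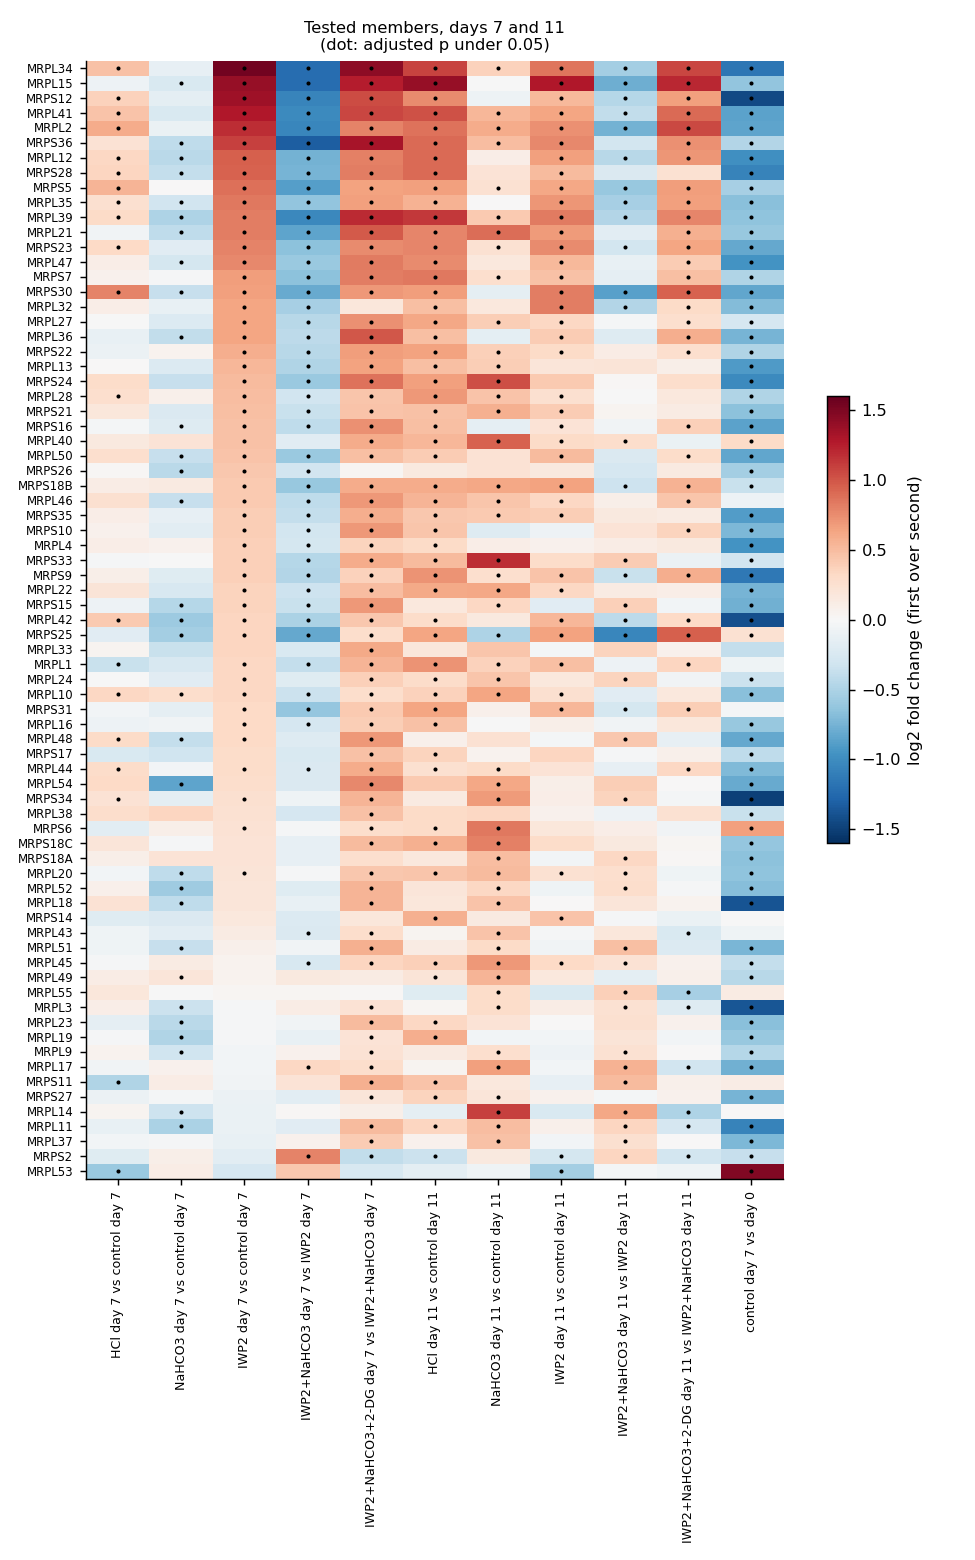
Log2 fold change of the 75 tested members (rows) in 11 comparisons of days 7, 11 and 0 (columns), tested group over its reference, with a dot where the adjusted p is under 0.05. Most rows have the same colour in the IWP2, HCl day 11 and 2-DG day 7 columns and the opposite colour for NaHCO3 on IWP2 at day 7, and MRPS2 runs against them.

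NaHCO3 alone went with called falls at day 7 and called rises at day 11, and the difference between these days was not tested. At day 7, 29 members were lower and 2 higher than in the control, with a median of -0.22, against 20% and 20.3% of all genes. Scaling by library totals alone gave 44 lower and none higher, with a median of -0.34, and lowered the median of all genes to -0.12. The main count rests on the first NaHCO3 library: without it 16 members were called and the median was -0.06, without the second 48 were called and the median was -0.38, and without either control library 19 were called. The summed level was 876.5 and 1081 FPKM with NaHCO3, against 1213 and 1224 FPKM in the control. MRPL11, which lies where translation factors bind, had 13.4 and 14.9 FPKM with NaHCO3, against 21.8 and 21.9 FPKM in the control (-0.50 ± 0.09, adjusted p = 1.39e-05). MRPS25 had 9.70 and 12.1 FPKM against 17.7 and 17.1 FPKM (-0.55 ± 0.08), and MRPL42 had 7.69 and 11.4 FPKM against 15.4 and 15.6 FPKM (-0.58 ± 0.10). In all of these both NaHCO3 libraries lie below both controls, although they differ between themselves. Cardiomyocyte markers summed to 73.4 and 35.7 FPKM with NaHCO3, against 361 and 411.4 FPKM in the control, with 5 of 7 called lower, and fibroblast markers to 5674 and 5217 FPKM against 2278 and 2167 FPKM, with all 5 called higher. None was at 0, and their part in the result was not tested.

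At day 11, NaHCO3 cultures had 47 members higher and 1 lower than the control, with a median of 0.33, against 26% and 26.5% of all genes. With scaling by library totals alone, the split was 23 higher and 6 lower, the median 0.13, and the median of all genes -0.22. MRPL14 had 76.6 and 77.3 FPKM with NaHCO3, against 42.3 and 40.4 FPKM in the control (1.09 ± 0.11, adjusted p = 4.67e-09). MRPS33 had 25.5 and 24.3 FPKM against 13.2 and 12.0 FPKM (1.18 ± 0.12), and MRPS24, part of the channel where the message enters, had 6.84 and 7.71 FPKM against 4.52 and 3.64 FPKM (1.03 ± 0.18). Groups do not overlap in these 3 members. MRPL40 and MRPL21 rose by 0.94 and 0.89. Of the members that led the rises with IWP2, MRPL34 rose by 0.37, while MRPL15 (-0.01), MRPS12 (-0.09) and MRPL12 (0.11) did not pass. MRPS25 was the single fall, at 8.94 and 8.81 FPKM against 15.1 and 13.7 FPKM (-0.50 ± 0.09). Cardiomyocyte markers were all lower with NaHCO3, at 19.08 and 19.99 FPKM against 500.3 and 692.5 FPKM, and all 5 fibroblast markers were higher, at 6343 and 6484 FPKM against 2909 and 2912 FPKM. The part of these cell types was not tested.

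Genes that work with the mitochondrial ribosome shared some of these changes. The 13 proteins encoded by mitochondrial DNA, the products of this ribosome, were all higher at the RNA level with IWP2 at day 7 (median 0.83), with HCl at day 11 (1.41) and with 2-DG at days 7 and 11 (0.78 and 1.30). All 13 were lower with NaHCO3 on IWP2 at day 7 (median -0.73). Over all genes, 23.3% were called higher with IWP2 at day 7 and 25.3% with HCl at day 11. That share was 25% and 24.9% with 2-DG at days 7 and 11, and 24% were called lower with NaHCO3 on IWP2 at day 7. MT-ND1, a core subunit of complex I, averaged 5111 ± 67.5 FPKM with HCl at day 11 and 1573 ± 29.9 FPKM in the control (SD, n = 2 each). Of the 37 tested nuclear genes of complex I, 36 rose with IWP2 at day 7 (median 0.84), 36 with HCl at day 11 (0.89) and 36 with 2-DG at day 7 (0.88), and 36 fell with NaHCO3 on IWP2 at day 7 (-0.82). These medians are larger than those of the ribosomal members in the same comparisons (0.35, 0.46, 0.55 and -0.30), a difference that was not tested. NDUFA8 averaged 69.8 ± 1.18 FPKM with IWP2 at day 7 and 22.0 ± 0.87 FPKM in the control (log2 fold change 1.76 ± 0.11, adjusted p = 3.11e-13).

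Counts of other genes of mitochondrial translation with IWP2 at day 7 are to be read against 23.3% of all genes called higher and 24.1% lower. Of 13 translation factors, 8 rose and none fell with IWP2 at day 7 (median 0.40), led by GFM2, MRRF, MTIF2 and GFM1 at 0.96, 0.85, 0.76 and 0.74. With HCl at day 11, 10 of the 13 rose, against 25.3% of all genes called higher and 27.4% lower. Of 23 tested genes for assembly of the ribosome and modification of its RNA, 3 rose and 4 fell with IWP2 at day 7, with a median of -0.03, both counts below the shares over all genes. Among the 20 tested mitochondrial tRNA synthetases 8 rose and 2 fell, and of the 7 ribosome subunits under other symbols 4 rose, led by PTCD3 at 0.85 and ICT1 at 0.59. Among regulators of mitochondrial genes, PPARGC1A, a coactivator that raises mitochondrial mass, averaged 18.9 ± 1.18 FPKM with IWP2 at day 7 and 1.35 ± 0.06 FPKM in the control, and ESRRA, its nuclear receptor partner, 21.1 ± 1.84 FPKM and 8.07 ± 0.26 FPKM. Both rises were called (3.90 ± 0.32 and 1.48 ± 0.10). These genes come from a list of 11 MYC family and regulator genes, and the rest of that list is not given here. The part of these regulators in the members' rise was not tested.

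In NaHCO3 cultures of day 11 these groups parted. While 47 ribosomal members rose, 12 of the 13 genes of mitochondrial DNA fell, with a median of -0.66, and MT-ND1 averaged 646 ± 54.6 FPKM with NaHCO3 and 1573 ± 29.9 FPKM in the control (-1.09 ± 0.07, adjusted p = 5.61e-14). Complex I genes of the nucleus had 27 rises and 1 fall (median 0.48). Cytosolic ribosomal proteins rose in 74 of 76 genes, with a median of 1.14, and RPS29 averaged 146 ± 5.26 FPKM against 50.4 ± 4.41 FPKM in the control. Over all genes, 26% were called higher and 26.5% lower with NaHCO3 at day 11. The 13 translation factors had 4 rises and 2 falls, so their rises lie near that share and their falls below it. For HCl at day 11 the shares over all genes were 25.3% higher and 27.4% lower, and for 2-DG 24.9% and 26.8%. In HCl cultures of the same day cytosolic ribosomal proteins went the other way, with 48 of 76 lower and none higher (median -0.44), while the mitochondrial members rose. 2-DG at day 11 had 71 of the 76 cytosolic genes lower (median -0.78), while of the 75 mitochondrial members 30 were higher, 7 were lower and the rest did not pass (median 0.15). G2/M genes fell in all 12 cases with NaHCO3 at day 11 and in 11 of 12 with HCl at day 11, where the other rose.

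**Figure D5:**
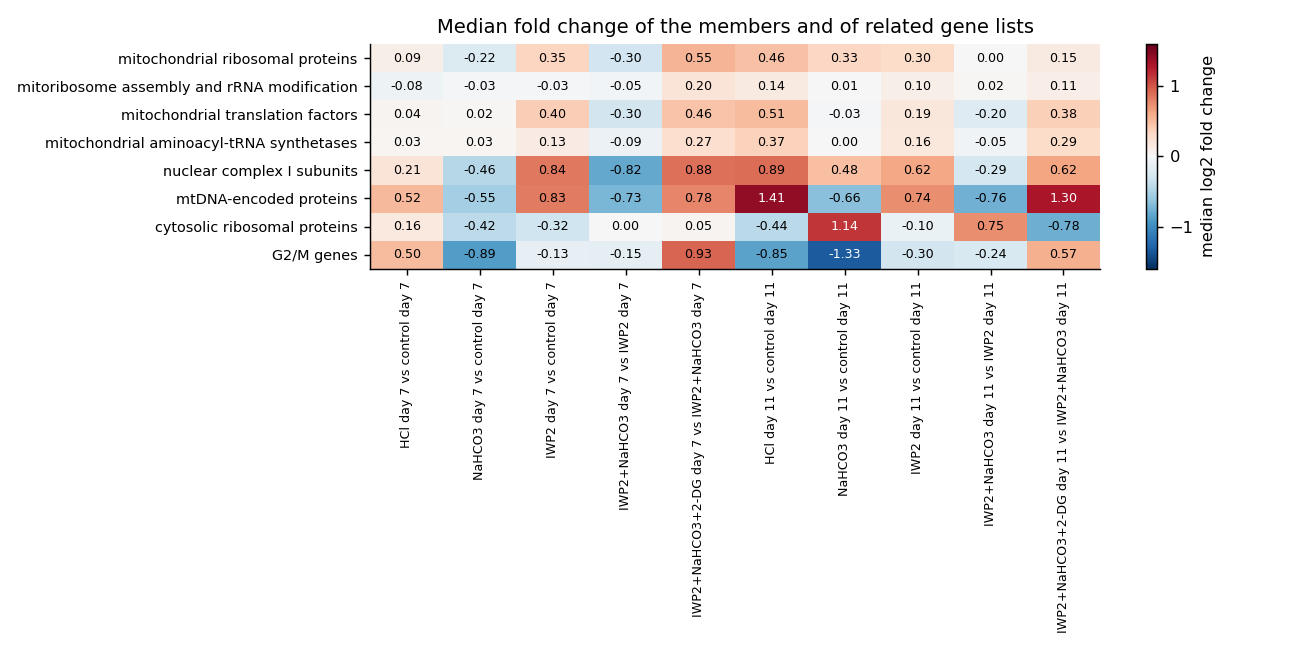
Median log2 fold change of the members and of 7 related gene lists in 10 comparisons, tested group over its reference. Complex I genes and genes of mitochondrial DNA follow the members with larger medians under IWP2, HCl at day 11 and 2-DG, and genes of mitochondrial DNA (-0.66) lie opposite to the members (0.33) with NaHCO3 alone at day 11.

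Days 3 and 5 showed few called members, and the spread in that table was raised by the 2 discordant day 3 libraries with 2-DG, so each count is given with and without them. IWP2 against control had 0 calls at day 3, against 0.347% of all genes higher and 0.821% lower (1 at an unadjusted p under 0.05, 0 by DESeq2 and limma, 1 without those libraries), and at day 5 it had 1 higher and 1 lower (10 without them), against 6.25% and 9.07%. NaHCO3 alone had 0 calls at day 3, against 6.75% of all genes higher and 5.55% lower (5 members at an unadjusted p under 0.05, 1 by DESeq2, 0 by limma, 14 without those libraries), and 1 higher and 1 lower at day 5 (10 without them), against 7.72% and 8.1%. NaHCO3 on IWP2 had 0 calls at both days, against 4.99% and 3.59% of all genes at day 3 and 7.24% and 5.76% at day 5. For it, 3 members had an unadjusted p under 0.05 at each day, DESeq2 called 1 and 0, limma 1 and 0, and 17 and 5 were called without those libraries.

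HCl called 3 members higher and 1 lower at day 3, against 15.8% and 14.2% of all genes, and 4 higher and 6 lower at day 5, against 20.7% and 21.2% (21 and 25 calls without those libraries). Library totals alone gave 1 and 9 at day 3 and 4 and 10 at day 5, and leaving out single libraries left 1 or 2 calls at day 3 and 4 to 7 at day 5. MRPL1 had 2.87 and 3.49 FPKM with HCl at day 3, against 7.00 and 7.58 FPKM in the control (-1.11 ± 0.21, adjusted p = 0.000485). MRPS25 had 8.82 and 9.12 FPKM with HCl at day 5, against 16.6 and 16.4 FPKM in the control (-0.84 ± 0.10, adjusted p = 5.62e-07), and MRPS27, a protein of the RNA-binding pentatricopeptide family, had 8.71 and 9.18 FPKM against 13.5 and 14.8 FPKM (-0.62 ± 0.09). In each of these the HCl libraries lie below both controls. MRPL2 went the other way, at 16.7 and 16.3 FPKM against 10.1 and 10.2 FPKM (0.74 ± 0.19).

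MRPS25 was called lower in 4 of the 5 treatment comparisons of day 5, and no other member in more than 2. It had 9.55 and 11.4 FPKM with IWP2, 13.2 and 13.1 FPKM with NaHCO3 and 8.82 and 9.12 FPKM with HCl, all called lower than the shared control at 16.6 and 16.4 FPKM. With 2-DG it had 7.49 and 8.46 FPKM, against 11.6 and 13.1 FPKM with IWP2 and NaHCO3 alone. In the control it was the only member called higher at day 5 than at day 3, at 16.6 and 16.4 FPKM against 11.3 and 10.8 FPKM (0.63 ± 0.10), while 15 members fell. The row overlaps NR2C2 on the opposite strand.

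In control cultures those 15 falls and 1 rise at day 5 compare with 18.1% and 20.4% of all genes (6 to 8 calls without the second library of day 3 or either of day 5, 40 without the day 3 libraries with 2-DG). IWP2 cultures had 15 members lower and none higher at day 5 than at day 3, against 19.9% and 21.4% of all genes (6 to 9 calls without the second library of day 5 or either of day 3, 46 without those with 2-DG). The called falls lie near the share over all genes. The medians, -0.25 in control cultures and -0.31 in IWP2 cultures, compare with 0.02 and 0.00 over all genes. Replicates of this table give a difference of member medians an SD of 0.235, which includes the day 3 pair with 2-DG, apart by 0.775. The next widest pair, IWP2 alone at day 5, was apart by 0.193. Both libraries of day 5 lay below both of day 3 in 64 members of control cultures and above in 3. Over all genes these shares were 38.7% and 34.2%. With IWP2 the counts were 58 and 2, against 38.9% and 33.3% of all genes. No test was made of these medians or counts. MRPS34 had 75.5 and 77.7 FPKM in control libraries of day 5, against 115.7 and 118.0 FPKM at day 3, and both days are apart. MRPL18, MRPL28 and MRPS2 fell by 0.63, 0.62 and 0.57 in the control.

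2-DG on IWP2 and NaHCO3 called 24 members higher and none lower at day 3, with a median of 0.44, against 9.49% and 7.39% of all genes. That result rests on the first library: without it 4 members were called and the median was 0.01, without the second 70 were called, and without either library of IWP2 and NaHCO3 1 or 3 were called. MRPS34 shows the gap, with 199.9 and 111.3 FPKM with 2-DG, against 112.1 and 109.7 FPKM without it. MRPS36, MRPL36 and MRPL41 were lower with 2-DG when only its second library was used (-0.52, -0.48 and -0.54). At day 5 the libraries with 2-DG agreed better: 20 members were higher and 2 lower, with a median of 0.30, against 20% and 19.6% of all genes. Library totals alone gave 10 and 6, leaving out either library without 2-DG or the first with it left 10 or 11 calls, and 46 were called without the day 3 libraries with 2-DG. MRPS12 had 15.4 and 15.6 FPKM with 2-DG at day 5, against 9.85 and 9.72 FPKM without it (0.84 ± 0.25, adjusted p = 0.0117), and MRPL54, MRPL48 and MRPL52 rose by 1.01, 0.86 and 0.83. MRPS25 and MRPS27 fell.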

How the data were processed

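RNA of H1 cells was sequenced in 50 libraries. The authors deposited read counts and FPKM per gene in 2 tables. Per the submitters' processing notes, cutadapt 1.9.1, HISAT2 2.0.1, HTSeq 0.6.1 and GRCh37 were used, and per the labels' protocols the input was 1 µg of RNA for a VAHTS Universal V8 kit. Strandedness of counting is not given in the sources used here: 37 member rows overlap a gene on the opposite strand and 23 on the same strand, and 33 have near-identical pseudogene rows, so their counts are uncertain.

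The deposited counts were tested with edgeR 4.0.16 (R 4.3.3; quasi-likelihood, robust, TMM, 1 mean per group, all libraries of a table) in 26 comparisons and 4 interactions, over genes with at least 1 FPKM in 2 libraries. Fold changes are on the TMM scale and can differ from ratios of the authors' FPKM, whose values are printed. Alternatives used DESeq2 1.42.0, limma 3.58.1 on log2(FPKM + 1) and log2(FPKM + 0.1), other scalings, no filter, the compared days alone, a replicate block and single libraries left out. The fit was tested first on simulated counts, in 1 comparison of each table. For HCl against control at day 5 it called 2% of 1.25-fold and 36% of 1.5-fold changes. For 2-DG on IWP2 and NaHCO3 at day 7 it called 20% and 84%. The changed genes were drawn only from genes above a minimum count, so these rates do not cover members with low counts. The simulated spread came from all libraries of a table, at days 3 and 5 with the discordant day 3 pair included. Under these settings small changes were missed more often at days 3 and 5.

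Members named are a panel of 20 with known roles, the 5 largest called rises and falls in each comparison, the 3 highest and lowest levels, and the 5 widest and narrowest ranges, with up to 4 called genes of each related list and the cell type markers. Members named in the tests between days, and MRPL15 and MRPL34 with NaHCO3 at day 11, were chosen after their values were seen. Members, lists and rules were chosen with earlier results of these data known.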

Additional observations from a re-analysis of the deposited data

Results flagged for a closer look

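In some members the effect of a treatment differed between days, by the test of the difference (edgeR interaction term, adjusted over all genes). For HCl against control, 38 members had a larger effect at day 11 than at day 7, with a median difference of 0.38, against 41.4% of all genes called in either direction. Between days 5 and 3 the HCl effect differed for 4 members, a count below the share of 27.8% over all genes. MRPL18 and MRPL2 were higher by 0.78 and 0.73 at day 5, and MRPS27 and MRPS25 lower, at -0.64 and -0.85. The count of members was 22 when both day 3 libraries with 2-DG were left out.

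For IWP2 against control, 6 members had a smaller effect at day 11 than at day 7, a count below the share of 15.4% over all genes. MRPS12 (-0.84 ± 0.19 SE, adjusted p = 0.0017 by edgeR), MRPL34 (-0.69 ± 0.16) and MRPL41 (-0.66) led, followed by MRPS15, MRPS10 and MRPL2. Without the second control library of day 11 or the first IWP2 library of day 7, 3 were called.

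For 2-DG on IWP2 and NaHCO3, 4 members (MRPS6, MRPL45, MRPL10 and MRPS27) had a smaller effect at day 5 than at day 3. That count lies below the share of 21.4% over all genes. The result rests on the discordant day 3 libraries with 2-DG. The median effect at day 3 was 0.009 without the first of them and 0.765 without the second. The former lies below the day 5 median of 0.30 and the latter above it, so the direction of the difference depends on these libraries. Fewer members were called without the second library with 2-DG of day 5. The same held without the first library of IWP2 and NaHCO3 of day 5, or either of day 3.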

How the results depend on the processing

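Each group has 2 libraries, so a left-out library leaves its arm with 1, assumed to vary like the other groups. Called members then ranged from 1 to 2 (HCl day 3), 4 to 7 (HCl day 5), 10 to 16 (HCl day 7), 1 to 1 (NaHCO3 day 5), 16 to 48 (NaHCO3 day 7, median -0.38 to -0.06), 1 to 2 (IWP2 day 5), 1 to 70 (2-DG day 3, median 0.009 to 0.765), 10 to 17 (2-DG day 5), 6 to 11 (control day 5 over 3), 1 to 6 (control day 11 over 7), 6 to 17 (IWP2 day 5 over 3) and 10 to 14 (IWP2 day 11 over 7), and for differences between days from 3 to 6 (IWP2) and 2 to 47 (2-DG). Calls stayed at 41 to 43 for IWP2 at day 7, 49 to 55 for HCl at day 11, 57 to 65 for 2-DG at day 7 and 39 to 42 for NaHCO3 on IWP2 at day 7. In what follows the counts are of called members and the cause was not tested. DESeq2 called 1 for NaHCO3 and 1 for NaHCO3 on IWP2 at day 3, and RLE size factors 1 for NaHCO3 at day 5. Library totals gave medians of 0.25 (IWP2 day 7), 0.13 (NaHCO3 day 11), -0.34 (NaHCO3 day 7) and -0.49 (control day 7 over 0), and counts of 7 (2-DG difference between days), 10 (HCl day 3), 29 (IWP2 day 5 over 3), 7 (2-DG day 3), 1 (NaHCO3 on IWP2 day 3), 29 (NaHCO3 day 11) and 25 (control day 5 over 3). limma on log2(FPKM + 0.1) gave medians of 0.25, 0.13, -0.35 and -0.49 for the same 4, and 11, 27, 4, 1 and 29 for HCl day 3, IWP2 day 5 over 3, 2-DG day 3, NaHCO3 on IWP2 day 3 and NaHCO3 day 11. On log2(FPKM + 1) it gave medians of 0.24, 0.12, -0.32 and -0.46, with 0.34 for HCl day 11 and 0.44 for 2-DG day 7, and counts of 10, 27, 4, 1 and 29. With no filter, counts were 38 (2-DG day 3), 1 (NaHCO3 on IWP2 day 3), 1 (NaHCO3 day 5) and 28 (control day 5 over 3). With the compared days alone they were 1 (HCl day 3), 26 (HCl day 5), 11 (IWP2 day 5), 1 (2-DG day 3), 47 (2-DG day 5), 6 (NaHCO3 on IWP2 day 5) and 9 (NaHCO3 day 5). Without both day 3 libraries with 2-DG they were 21 and 25 (HCl days 3 and 5, 22 for their difference), 1 and 10 (IWP2 days 3 and 5), 46 (IWP2 day 5 over 3), 46 (2-DG day 5), 17 and 5 (NaHCO3 on IWP2), 14 and 10 (NaHCO3) and 40 (control day 5 over 3). MRPS27 with NaHCO3 at day 11 changed sign at -0.001, -0.000 and -0.001 (library totals and limma with both pseudocounts), and with 2-DG at day 3 single libraries left out gave MRPS36 values from -0.519 to 0.666, MRPL36 from -0.483 to 0.765 and MRPL41 from -0.535 to 0.862. The replicate block changed no count by over 1.5 times (49 calls for IWP2 at day 7, 55 higher and 1 lower for HCl at day 11). Deviations of same-numbered libraries had median correlations of 0.00632 (days 3 and 5, range -0.11 to 0.293) and -0.00534 (days 7, 11 and 0, range -0.0595 to 0.0647). No general pairing shows, but a median cannot settle the question for single groups. With 2 libraries a group, small differences and low members such as MRPL53 are the least certain.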

Other observations

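Some genes from the list of 11 MYC family and regulator genes took different directions with NaHCO3 alone at day 11. In that group the mitochondrial ribosomal genes rose while the genes of mitochondrial DNA fell. MYC averaged 8.79 ± 0.445 FPKM with NaHCO3 and 3.36 ± 0.354 FPKM in the control (SD, n = 2 each), higher by 1.59 ± 0.14 on the log2 scale (SE; edgeR adjusted p = 5.67e-11). PPARGC1A averaged 0.085 ± 0.00707 FPKM with NaHCO3 and 3.03 ± 0.453 FPKM in the control (-4.88 ± 0.55, adjusted p = 3.63e-06), and ESRRA did not pass the test (0.07). With HCl at day 11, PPARGC1A averaged 20.4 ± 0.82 FPKM against the same control, and MYC 2.42 ± 0.0707 FPKM, a fall of 0.39 on the log2 scale that passed the test. PTCD3, a pentatricopeptide protein of the small subunit under another symbol, was lower with NaHCO3 (-0.52 ± 0.07) and higher with HCl (0.67 ± 0.07) at that day. The cell types in these groups differ, and their part was not tested.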
